A study of Mus musculus with 6 samples.

Results

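The messenger RNA of 10 genes that mark dendritic cells was followed in subcutaneous CT26 tumours given irinotecan or solvent. The genes were Flt3, Zbtb46, Xcr1, Clec9a, Batf3, Cd209a, Itgax, Itgae, Ccr7 and Wdfy4. Each was taken from the deposited table by its gene symbol, and all 10 of 10 were found among the 25251 genes listed. CT26 cells come from a colon carcinoma of BALB/c mice, and irinotecan (CPT-11) is turned in the body into an inhibitor of topoisomerase I. All animals were wild type and carried CT26 tumours under the skin. The 3 control tumours came from mice given solvent, and the 3 irinotecan tumours from mice given 25 mg/kg into the peritoneum every 4 days, with randomization once tumours measured 100 mm3. The sources used here give neither the age of the mice nor the time between the last dose and collection. Whole tumours were sequenced, so fewer dendritic cells and less RNA per cell cannot be told apart. The design text mentions duplicates, but 3 samples of each group are labelled, and none was left out. Whether each sample is a separate mouse is not stated, so p-values measure only the spread between these samples.

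Dendritic cells take up antigen, carry it to lymph nodes and present it to T cells. Conventional type 1 cells, which depend on the transcription factor Batf3, take up dead tumour cells and display their peptides to CD8 T cells. Type 2 cells mainly address CD4 T cells, and plasmacytoid cells are producers of type I interferon. Tumours hold few dendritic cells beside many macrophages, and several of these markers are shared with other cells. Itgax is also made by macrophages and natural killer cells, Itgae and Ccr7 by T cell subsets, Wdfy4 by B cells, and Zbtb46 by endothelial cells.

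Of the 10 genes, 9 entered the test across all genes and none was called, while Batf3 fell short of the filter on low values. Zbtb46 was the gene whose irinotecan libraries all lay above the controls (means 195.2 and 127.8 normalized counts), and Wdfy4 the gene whose irinotecan libraries all lay below (172.1 and 223.2). The other 8 overlapped between groups. Over all tested genes, 14.6% had no overlap between groups, 6.68% with irinotecan above and 7.89% with irinotecan below. In 9 of the 10 genes the lowest of the 6 libraries was irinotecan replicate 1, which was the lowest for 36.8% of all tested genes and for 36.4% of those with a mean normalized count of 10 to 50. In Zbtb46 it was the highest, as for 34.2% of all tested genes. Without that library, the planned sum of Xcr1, Clec9a, Batf3 and Wdfy4 was 0.89 times the control mean, against 0.764 times with it. With Wdfy4 left out, a sum that was not planned, these values were 1.02 and 0.742.

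The libraries held 13940650 to 15656894 reads. Irinotecan replicate 1 stood apart: the correlation of log2 values across genes was 0.932 to 0.941 for its pairs with other libraries and 0.9748 to 0.985 for the 10 pairs without it, and it had reads for 19040 genes against 20571 to 21426. In it, the median log2 difference to the mean of the controls was 0.36 for genes longer than 8000 bases and -0.76 for genes above 60% GC. Of 5 pan-leukocyte markers, the summed normalized count was 3660 in this library and 5020 to 6071 in the other 5. Of 12 macrophage and monocyte markers, it was 10967 against 21842 to 24649. For the fold changes of the marker genes and the medians of the gene lists, the value without this library is also given. Of the 8 colon epithelial markers looked at, 5 passed the filter on low values, and Krt20, a colon keratin, had 1608 to 2098 normalized counts per library, whereas Epcam, which marks most epithelia, had 0 to 3 reads.

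The 250 bases before the RefSeq start are shown for Clec9a and Xcr1, which are both held to mark type 1 cells and whose reads are compared below, and for Itgax, the broad myeloid marker among the 10. The windows are given 5′ to 3′ on the gene's strand, on GRCm38.p6. Capitals mark GGAA, the core of sites for ETS factors such as PU.1, on either strand in Clec9a (chr6:129408612-129408861, plus strand) and Xcr1 (chr9:123862030-123862279, minus strand), and TGANTCA, the AP-1 site that BATF proteins also bind, in Itgax (chr7:128129300-128129549, plus strand).
Clec9a: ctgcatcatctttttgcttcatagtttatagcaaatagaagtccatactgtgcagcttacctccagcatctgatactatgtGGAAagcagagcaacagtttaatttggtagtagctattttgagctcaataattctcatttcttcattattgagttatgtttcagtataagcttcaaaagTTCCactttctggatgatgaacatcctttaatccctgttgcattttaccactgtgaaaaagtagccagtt
Xcr1: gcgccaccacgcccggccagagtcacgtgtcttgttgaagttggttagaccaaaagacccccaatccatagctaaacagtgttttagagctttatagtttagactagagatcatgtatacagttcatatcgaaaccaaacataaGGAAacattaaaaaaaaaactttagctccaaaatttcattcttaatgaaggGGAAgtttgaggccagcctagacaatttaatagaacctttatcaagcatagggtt
Itgax: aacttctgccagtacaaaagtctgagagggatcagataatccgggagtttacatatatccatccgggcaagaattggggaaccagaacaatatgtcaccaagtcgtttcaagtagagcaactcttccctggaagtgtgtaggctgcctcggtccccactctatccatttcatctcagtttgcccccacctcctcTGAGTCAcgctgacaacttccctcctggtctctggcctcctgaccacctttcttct
Windows were at hand for 8 of the 10 genes, Itgae and Ccr7 being named only. GGAA was in 7 of these 8 windows, against 93.4% of all 32851 RefSeq windows of this length. TGANTCA, which reads the same on both strands, was in 2 of 8 (Itgax and Zbtb46), against 6.75% of all windows. The RefSeq start of Zbtb46 lies 35038 bases inside the gene span of the deposited table, so its window is not upstream of the whole gene. The interferon response element was in 0 of 8 windows (2.98% of all), and the composite element of an ETS and an IRF site in 0 of 8 (2.3% of all), both searched on both strands and each counted where they overlap.

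Levels can be compared between genes only per length, here as RPKM, reads scaled by gene length and library size. In controls, all 10 genes were low: Ptprc, which encodes CD45 of all leukocytes, had 4.94 ± 0.537 RPKM (SD, n = 3) and Csf1r, the macrophage growth factor receptor, had 26.3 ± 2.08. Itgax was at 1.53 ± 0.523 RPKM, Wdfy4 at 1.44 ± 0.137, Ccr7 at 1.17 ± 0.232 and Zbtb46 at 1.02 ± 0.00973. Itgae followed at 0.739 ± 0.0997 RPKM, Cd209a at 0.686 ± 0.43, Clec9a at 0.682 ± 0.168 and Xcr1 at 0.583 ± 0.192. The lowest were Batf3 at 0.323 ± 0.245 RPKM and Flt3 at 0.196 ± 0.0652. Of the 9 neighbouring steps in this order, only that from Zbtb46 to Itgae exceeded the summed SDs of its neighbours. The gene length used is that of the deposited table, 18313 bases for Ptprc and 4885 for Csf1r. A longer listed length lowers RPKM, so the distance of the 10 genes from Ptprc depends on it. By control RPKM, Itgax, the highest of the 10, stood at percentile 22.4 of the tested genes.

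**Figure D1:**
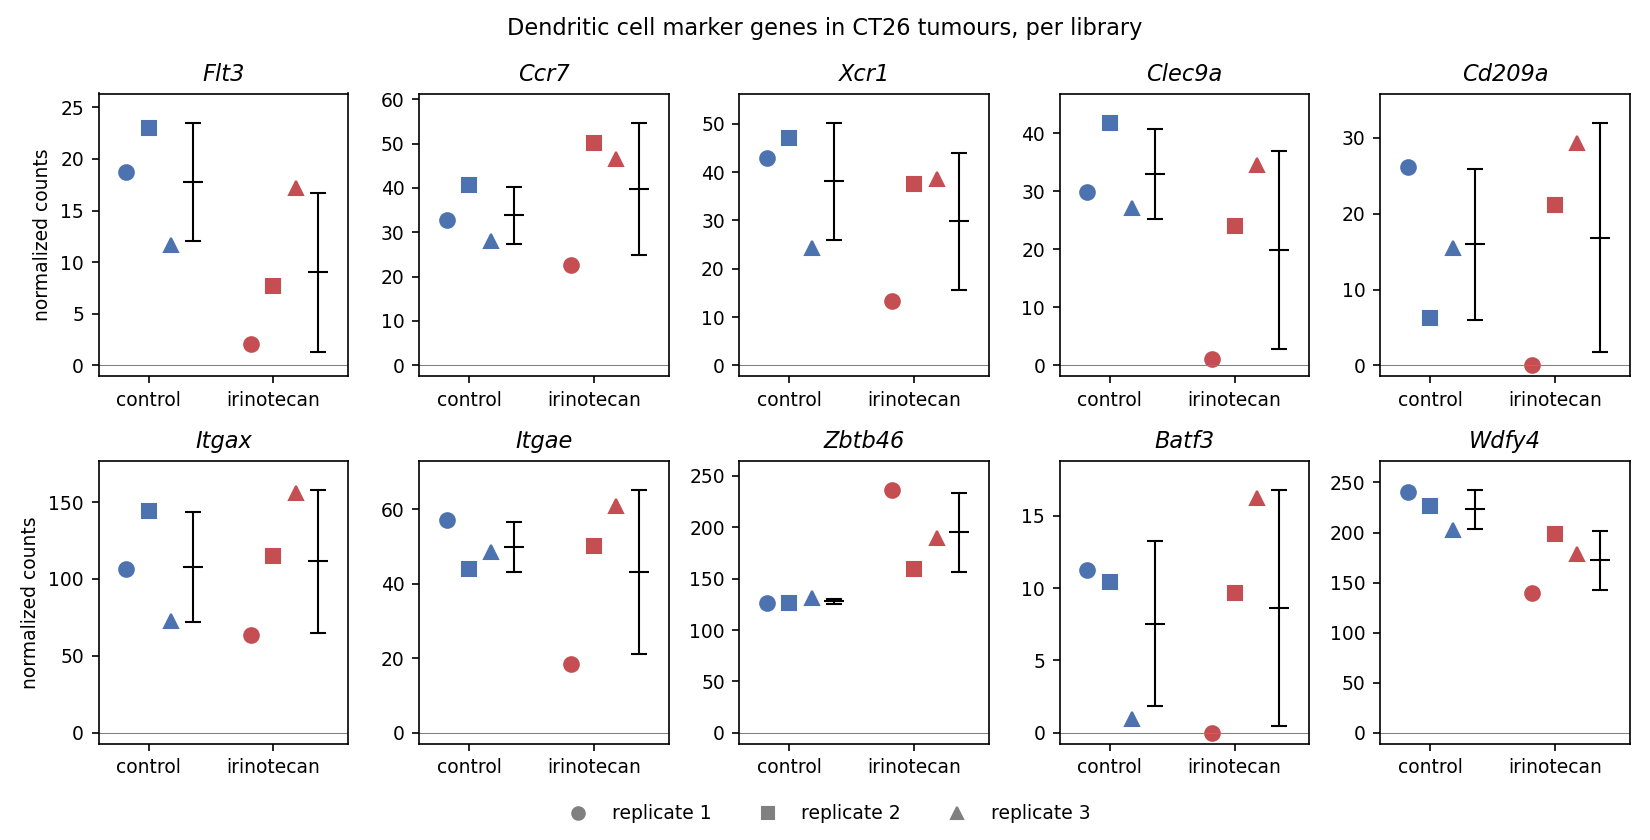
Normalized counts (vertical axes, each including 0) of the 10 dendritic cell marker genes in 3 control (blue) and 3 irinotecan (red) tumours; symbols give the replicate number, and the horizontal mark with bars beside each group is the mean ± SD. Irinotecan replicate 1 (red circle) is the lowest point in 9 panels and the highest in Zbtb46.

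The growth factor receptor Flt3, which dendritic cell precursors need to expand, lies on chromosome 5 from 147330741 to 147400489 (GRCm38, minus strand). Its normalized counts, that is, reads per gene divided by the authors' factor for each library, were 18.7, 23 and 11.6 in control replicates 1, 2 and 3. With irinotecan they were 2.05, 7.71 and 17.2, which rest on 2, 8 and 17 reads. Irinotecan replicates 1 and 2 lay below all controls and replicate 3 among them. The log2 fold change was -1.21 (95% confidence interval -2.84 to 0.43, limma, unadjusted p = 0.128, adjusted p = 0.743), and -0.53 without irinotecan replicate 1. Here and below, fold changes are on the log2(normalized count + 1) scale. The added 1 shrinks the change of low genes, but a single library near 0 can enlarge it, and DESeq2 gave -0.98 for Flt3. Its ligand gene Flt3l had 166.4, 170.4 and 153.0 normalized counts in controls and 168.4, 228.3 and 215.9 with irinotecan (log2 fold change 0.31, SE 0.193, limma unadjusted p = 0.145). For Flt3l only irinotecan replicate 1 lay among the controls.

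Background counts set the scale for these tests. After a filter at a mean normalized count of 10, which 14639 genes passed, limma called 0 (0.0%) at an adjusted p under 0.05, and 9 of the 10 marker genes were among those tested, none of them called. An unadjusted limma p under 0.05 was found for 844 genes (5.77%, of which 393, or 2.68% of those tested, were higher) and for 1 of the 9, Zbtb46, which was higher. DESeq2 called 52 genes (0.355%) and edgeR 0, with none of the 9 marker genes among them in either, and their unadjusted p was under 0.05 for 964 (6.59%) and 869 (5.94%) genes, in each case with Zbtb46 as the marker gene. In the authors' deposited table the adjusted p was under 0.05 for 47 genes, none of them a marker gene. This is 0.186% of all 25251 genes listed, not of the 14639 tested here. A share of 1 in 9 at an unadjusted p is not a result about these genes. Of the 9, 3 had a positive and 6 a negative log2 fold change, with a median of -0.38, whereas 48.2% of all tested genes were positive and their median was -0.01. Without irinotecan replicate 1, 6 of the 9 were positive and the median was 0.15. Limma then called 2 genes (0.0137%) and DESeq2 162 (1.11%), with 0 of the 9 among them, and the unadjusted limma p was under 0.05 for 1390 genes (9.5%) and for Zbtb46.

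**Figure D2:**
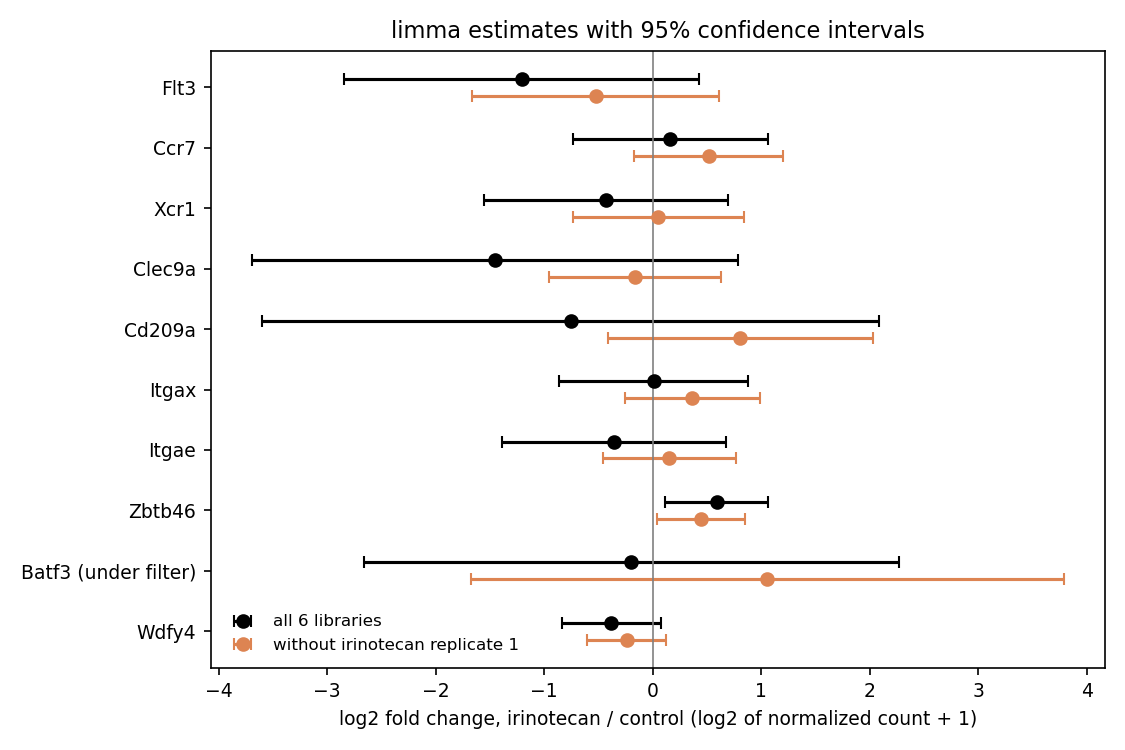
Limma log2 fold change (horizontal axis, irinotecan over control, log2 of normalized count + 1) with its 95% confidence interval for each marker gene, with all 6 libraries (black) and without irinotecan replicate 1 (orange). Intervals of 9 genes span 0 with all libraries; that of Zbtb46 runs from 0.12 to 1.06, and the values are unadjusted for the number of genes.

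Xcr1 is the receptor through which type 1 dendritic cells meet the chemokine Xcl1 of T and natural killer cells. It lies on chromosome 9 from 123852315 to 123862029 (minus strand). It had 43.0, 47.0 and 24.2 normalized counts in controls and 13.3, 37.6 and 38.5 with irinotecan. Irinotecan replicates 2 and 3 lay inside the control range and replicate 1 below it. The log2 fold change was -0.43 (95% interval -1.55 to 0.70, limma adjusted p = 0.798), and it was 0.05 without that library. Xcl1 itself was at or under 8 reads in every library, with 0 in irinotecan replicate 1.

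Clec9a encodes a lectin that binds actin filaments laid bare on dead cells and lies on chromosome 6 from 129408862 to 129424763 (plus strand). Normalized counts were 29.9, 41.8 and 27.1 in controls and 1.03, 24.1 and 34.5 with irinotecan. The first irinotecan value rests on 1 read (exact Poisson 95% interval 0.0253 to 5.57 reads, counting error only), while replicate 2 lay just below the controls and replicate 3 among them. The log2 fold change of -1.46 (95% interval -3.70 to 0.79, limma unadjusted p = 0.174) became -0.16 without that library, and DESeq2 gave -0.73 with it.

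Because Clec9a and Xcr1 mark the same cells, their reads were set against each other within each library, a comparison chosen after their values were seen. Clec9a gave 41.0%, 47.1% and 52.8% of the reads of both genes in controls and 39.1% and 47.2% in irinotecan replicates 2 and 3, from 53 to 85 reads. In irinotecan replicate 1 it gave 7.14%, 1 of 14 reads (Clopper-Pearson 95% interval 0.181% to 33.9%). That interval lay under the share in each of the other libraries but overlapped the intervals of control replicate 1 (from 30.0%) and irinotecan replicate 2 (from 27.1%). The cause was not tested.

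**Figure D3:**
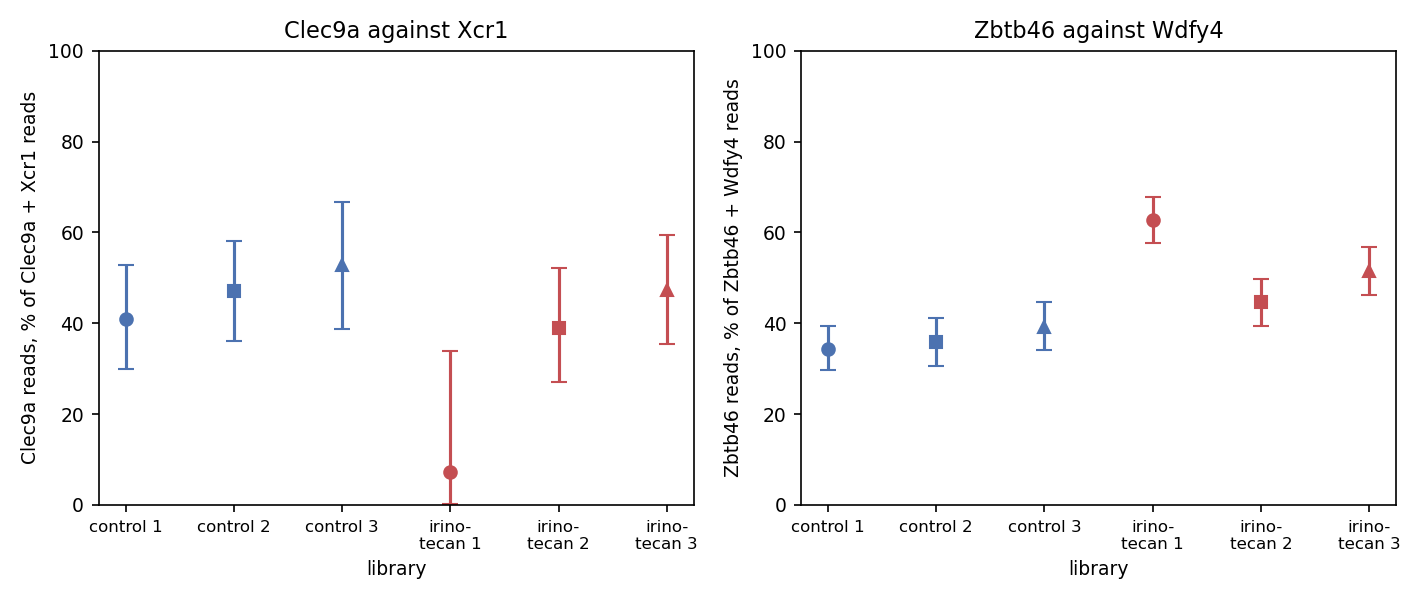
Share of reads (vertical axes, percent) within 2 pairs of marker genes in each library, with Clopper-Pearson 95% intervals that cover counting error only; blue, control, and red, irinotecan. In irinotecan replicate 1 Clec9a gives 7.14% of Clec9a and Xcr1 reads, and Zbtb46 gives 62.8% of Zbtb46 and Wdfy4 reads.

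Batf3, the transcription factor that type 1 cells require, lies on chromosome 1 from 191097847 to 191108945 (plus strand). It fell short of the filter, with a mean of 8.08 normalized counts over the 6 libraries. It had 11.2, 10.5 and 0.968 normalized counts in controls and 0, 9.63 and 16.2 with irinotecan. Both groups held a library at or near 0, namely control replicate 3 with 1 read and irinotecan replicate 1 with 0 reads, which allows up to 3.08 normalized counts (3 reads). In the fit without the filter its log2 fold change was -0.20 (95% interval -2.66 to 2.27, limma), an interval too wide to show a direction at this depth. It was 1.06 without irinotecan replicate 1.

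Wdfy4 encodes a large BEACH-domain protein that type 1 cells need to present antigen of dead cells on MHC class I, and lies on chromosome 14 from 32959547 to 33185508 (minus strand). It had the most normalized counts of the 10 genes in controls, 240.3, 226.9 and 202.4, and with irinotecan 139.6, 198.4 and 178.4. All irinotecan libraries lay under all controls, replicate 2 by little. The means were 223.2 ± 19.2 and 172.1 ± 29.9 (SD, n = 3), with a log2 fold change of -0.38 (95% interval -0.84 to 0.07, limma unadjusted p = 0.0884, adjusted p = 0.743). Over all tested genes, 7.89% had irinotecan libraries all below the controls, and among the 10 marker genes 1 did. Without irinotecan replicate 1 the log2 fold change was -0.24. B cells also express Wdfy4: of 6 B cell markers, the summed normalized counts were 285.1, 324.1 and 103.6 in controls and 108.8, 144.5 and 310.1 with irinotecan. The 2 that passed the filter were both lower, with a median log2 fold change of -0.66, or -0.26 without irinotecan replicate 1. The part of B cells in the Wdfy4 value was not tested.

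The sum of Xcr1, Clec9a, Batf3 and Wdfy4 was 324.4, 326.2 and 254.7 normalized counts in controls and 154.0, 269.7 and 267.6 with irinotecan, 0.764 times the control mean, or 0.89 times without irinotecan replicate 1. Wdfy4 supplies most of it. Without Wdfy4, a sum that was not planned, the values were 84.1, 99.3 and 52.3 in controls and 14.4, 71.3 and 89.2 with irinotecan. Irinotecan replicates 2 and 3 lay inside the control range of 52.3 to 99.3. No test was run on these sums.

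Type 1 genes outside the 10 were read in the same way. Of 14 tested, 4 had a positive and 10 a negative log2 fold change with a median of -0.10 (-0.02 without irinotecan replicate 1), and 0 were called. In controls Ppt1, Nfil3, Ly75 and Cadm1 of this list had 27.2, 19.5, 15.2 and 11.9 RPKM, far above Clec9a at 0.682 and Xcr1 at 0.583. Others were low, such as Btla at 0.508 RPKM. The median therefore cannot be read as a value of type 1 cells alone. Irf8, a transcription factor of type 1 and plasmacytoid cells that macrophages share, had 470.2, 539.5 and 361.2 normalized counts in controls and 272.1, 539.4 and 480.4 with irinotecan. Tlr3, a sensor of double-stranded RNA, was at 0.25 (SE 0.16) on the log2 scale, and Btla, an inhibitory receptor, at -0.58 (SE 0.538), or -0.04 without irinotecan replicate 1. In this list irinotecan replicate 1 was the lowest library for 6 of 14 genes, against 36.8% of all tested genes.

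Cd209a, a mouse homologue of the human lectin DC-SIGN found on type 2 and monocyte-derived dendritic cells, lies on chromosome 8 from 3743397 to 3748984 (minus strand). It belongs to a family of similar neighbouring genes, so its reads may be shared with them. Normalized counts were 26.2, 6.27 and 15.5 in controls and 0, 21.2 and 29.4 with irinotecan. The irinotecan group held both the lowest and the highest library of the 6. The log2 fold change of -0.76 (95% interval -3.60 to 2.09, limma adjusted p = 0.854) turned to 0.81 without irinotecan replicate 1. In the authors' deposited table it was 0.08.

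The other type 2 and monocyte-derived dendritic cell genes had 2 positive and 11 negative log2 fold changes among 13 tested, with a median of -0.38 and 0 called. Without irinotecan replicate 1 the median was -0.04, and that library was the lowest for 11 of the 13. Irf4, a transcription factor of type 2 cells, had 13.1, 22.0 and 22.3 normalized counts in controls and 8.21, 18.3 and 22.3 with irinotecan. Sirpa, the receptor for CD47, was at -0.38 (SE 0.173) on the log2 scale and the transcription factor Klf4 at -0.40 (SE 0.147, limma unadjusted p = 0.024, adjusted p = 0.743). Of the 13, 3 had irinotecan libraries all below the controls and 1 all above, against 7.89% and 6.68% of all tested genes. The 3 include Sirpa and Klf4, whose values without irinotecan replicate 1 were -0.20 and -0.31. Macrophages express both as well: of 12 macrophage and monocyte markers, 11 had a negative log2 fold change, with a median of -0.38, which was -0.12 without irinotecan replicate 1. Their part in these values was not tested.

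Itgax encodes the alpha chain of CD11c, which pairs with the beta chain of Itgb2, and lies on chromosome 7 from 128129547 to 128150657 (plus strand). It had 106.6, 144.3 and 72.6 normalized counts in controls and 63.7, 114.6 and 156.1 with irinotecan. The groups covered nearly the same range, with a log2 fold change of 0.01 (95% interval -0.86 to 0.88, limma adjusted p = 0.994). Without irinotecan replicate 1 it was 0.36. Itgb2 had 1054, 1144 and 816.3 normalized counts in controls and 562.7, 937.1 and 874.7 with irinotecan (log2 fold change -0.36, SE 0.224; -0.14 without irinotecan replicate 1).

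Itgae encodes CD103, which pairs with the chain of Itgb7 to bind E-cadherin, and lies on chromosome 11 from 73090583 to 73147446 (plus strand). Haspin, a gene on the other strand with 231.2 to 288.9 normalized counts per library, lies within its span. Without a stated strand setting, reads in the overlap cannot be told apart. Itgae had 57.0, 43.9 and 48.4 normalized counts in controls and 18.5, 50.1 and 60.8 with irinotecan. Irinotecan replicate 1 lay below the controls, replicate 2 among them and replicate 3 above them. The log2 fold change was -0.36 (95% interval -1.39 to 0.68, limma adjusted p = 0.815), and 0.15 without replicate 1. Itgb7 had a log2 fold change of -0.15 (SE 0.142), and Cdh1, which encodes E-cadherin, had 13.6 to 26.1 normalized counts in controls and 11.1 to 38.0 with irinotecan.

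Of the 6 tested integrin genes partnered with or related to these, 1 had a positive log2 fold change and the median was -0.26 (-0.16 without irinotecan replicate 1). Itga4, with all irinotecan libraries under the controls, had -0.52 (SE 0.279; -0.19 without irinotecan replicate 1). T cells also carry CD103: of 12 T cell markers, 8 were above 0 on the log2 scale with a median of 0.25 (-0.13 to 0.44 with each library left out in turn), and their summed normalized counts were 348.6 to 489.3 in controls and 341.9 to 679.0 with irinotecan. Cd3e, a chain of the T cell receptor complex, was at 36.8 to 50.2 and 42.1 to 60.8 normalized counts. Trbc1, a receptor constant gene, was at 0.94 (SE 0.289) on the log2 scale and Cd3g at 0.67 (SE 0.361).

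Ccr7, the receptor that guides mature dendritic cells and naive T cells to lymph nodes, lies on chromosome 11 from 99144196 to 99155077 (minus strand). Its normalized counts were 32.7, 40.8 and 28.1 in controls and 22.6, 50.1 and 46.6 with irinotecan. Irinotecan replicates 2 and 3 lay above all controls and replicate 1 below them. The log2 fold change was 0.16 (95% interval -0.74 to 1.06, limma adjusted p = 0.906), or 0.52 without replicate 1 (limma unadjusted p = 0.127). With that library left out, 2 of the 10 marker genes, Ccr7 and Zbtb46, had irinotecan libraries all above the controls, against 12.8% of tested genes. Wdfy4 had them all below, against 13.7%.

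Genes that dendritic cells switch on as they mature and migrate were read next. Of 19 tested, 6 had a positive and 13 a negative log2 fold change and 0 were called. The median was -0.09, or -0.03 without irinotecan replicate 1, and it was above 0 with estimated library weights (0.0276) and after removal of a trend on GC content and length (0.0238). Fscn1, an actin-bundling protein of mature dendritic cells that tumour cells can also make, had 2478, 2447 and 2565 normalized counts in controls and 1214, 1828 and 2047 with irinotecan. Its irinotecan libraries all lay under the controls (log2 fold change -0.59, SE 0.195, limma unadjusted p = 0.0155, adjusted p = 0.743). Without irinotecan replicate 1 the log2 fold change of Fscn1 was -0.37. Cd274, which encodes the checkpoint ligand PD-L1 and is found on many cell types, had all irinotecan libraries above the controls, with a log2 fold change of 0.48 (SE 0.166). Ccl22, a chemokine of mature dendritic cells, had 13.1, 31.4 and 48.4 normalized counts in controls and 21.6, 15.4 and 49.7 with irinotecan. Lamp3, a more restricted marker of these cells, had 1, 1 and 5 reads in controls and 0, 0 and 1 with irinotecan.

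Zbtb46, a transcription factor that sets conventional dendritic cells apart from other myeloid cells, lies on chromosome 2 from 181387762 to 181459426 (minus strand). Normalized counts were 126.2, 126.5 and 130.7 in controls and 236.2, 159.9 and 189.5 with irinotecan. The controls were close together and all irinotecan libraries lay above them, with irinotecan replicate 1 the highest. The means were 127.8 ± 2.52 and 195.2 ± 38.5 (SD, n = 3), a log2 fold change of 0.59 (95% interval 0.12 to 1.06, limma unadjusted p = 0.0205, adjusted p = 0.743). Over all tested genes, 6.68% had irinotecan libraries all above the controls, and among the 10 marker genes 1 did. Without irinotecan replicate 1 the log2 fold change was 0.44 (95% interval 0.04 to 0.85, limma adjusted p = 0.485).

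Beside this value stand length and endothelial content. Zbtb46 has 8508 bases of gene length, in the class over 8000 bases whose median in irinotecan replicate 1 was 0.36 above the control mean on the log2 scale. Wdfy4, at 10552 bases in the same class, was lowest in that library. With the trend on GC content and length removed, the log2 fold change of Zbtb46 was 0.55. The part of length in the Zbtb46 value was not tested. Of 8 endothelial markers, a list added after the values were seen, 7 had a negative log2 fold change with a median of -0.61 (-0.45 without irinotecan replicate 1), and their summed normalized counts were 2890 to 3111 in controls and 1613 to 2507 with irinotecan. Cdh5, the cadherin of endothelial junctions, was at -0.67 (SE 0.173) and Pecam1, another junction protein, at -0.55 (SE 0.149). Most endothelial markers and Zbtb46 thus had opposite signs, and the part of endothelial content in the Zbtb46 value was not tested.

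Zbtb46 and Wdfy4, the genes without overlap, were compared within each library, again after their values were seen. Zbtb46 gave 34.4%, 35.8% and 39.2% of the reads of both in controls and 62.8%, 44.6% and 51.5% with irinotecan, from 338 to 392 reads per library. Since the pair was chosen for opposite separations, its shares had to separate the groups and test nothing. The Clopper-Pearson 95% interval of irinotecan replicate 2, 39.5% to 49.8%, overlapped those of control replicates 2 and 3 (up to 41.2% and 44.6%). Both genes are held to mark conventional dendritic cells.

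The marker genes were also set against Ptprc in the same library, which shifts every mean log2 difference by the same amount and so keeps their order. Per 1000 normalized counts of Ptprc, Zbtb46 had 107.8, 87.2 and 95.8 in controls and 230.9, 110.0 and 152.4 with irinotecan, a mean log2 difference of 0.70 (exact permutation test, two-sided, p = 0.1, the smallest that 3 against 3 can give). Wdfy4 had 205.3, 156.5 and 148.3 in controls and 136.5, 136.5 and 143.4 with irinotecan (mean log2 difference -0.28, exact permutation p = 0.1, the smallest possible). With Cd53 as the reference the difference of Wdfy4 was -0.12 (exact permutation p = 0.7), with Laptm5 -0.18 (exact permutation p = 0.2), and without control replicate 1 it was -0.13 relative to Ptprc. Zbtb46 without irinotecan replicate 1 was at 0.42. The other 8 genes had exact permutation p-values of 0.2 to 0.9. Clec9a had 25.6, 28.8 and 19.9 per 1000 Ptprc counts in controls and 1.004, 16.6 and 27.7 with irinotecan, and Flt3 16.0, 15.9 and 8.52 against 2.01, 5.30 and 13.9. Both were lowest in irinotecan replicate 1 on this scale too. Ptprc, at 18313 bases, is in the class over 8000 bases, whose median in that library was 0.36 above the control mean on the log2 scale. The part of length in these ratios was not tested. Ptprc itself had 1170, 1450 and 1364 normalized counts in controls and 1023, 1453 and 1244 with irinotecan (log2 fold change -0.11, SE 0.167; 0.02 without irinotecan replicate 1).

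Plasmacytoid dendritic cell genes had 3 positive and 6 negative log2 fold changes among 9 tested, and 0 were called. The median was -0.35, but -0.12 without irinotecan replicate 1, which was the lowest library for 6 of the 9, -0.14 with a filter at a mean of 50 and -0.0940 with estimated library weights. Siglech, the sialic acid-binding lectin that marks these cells, had 31.8, 15.7 and 4.84 normalized counts in controls and 0, 2.89 and 14.2 with irinotecan. The groups overlapped, with a log2 fold change of -1.92 (SE 1.08, limma unadjusted p = 0.113), or -0.94 without irinotecan replicate 1. The nucleic acid sensors Tlr7 and Tlr9, which macrophages and B cells share, stood at -0.49 (SE 0.228) and -1.54 (SE 0.74) on the log2 scale, or -0.29 and -0.60 without irinotecan replicate 1, and Tlr9 had 6.16, 34.7 and 71.96 normalized counts with irinotecan against 68.2 to 92.0 in controls. Both Ly6d and Upb1 of this list had no row in the table and were not used here.

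Of the ligands, growth factors and recruiting chemokines, 10 of 15 were tested, with 5 positive and 5 negative log2 fold changes, a median of 0.06 (0.05 without irinotecan replicate 1) and 0 called. That median was 0.23 with edgeR and 0.24 with DESeq2, -0.10 without the filter and -0.0484 without control replicate 2. The Ccr7 ligand genes Ccl19 and Ccl21a were not analysed here. Ccl3, a chemokine that draws in myeloid cells, had 53.3, 53.3 and 79.4 normalized counts in controls and 1.03, 49.1 and 39.5 with irinotecan (log2 fold change -1.95, SE 1.09; -0.46 without irinotecan replicate 1). Among 8 tested chemokine receptors outside the 10, 3 were positive and 5 negative with a median of -0.24 (-0.15 without irinotecan replicate 1). Cxcr4 had 181.4, 151.6 and 130.7 normalized counts in controls and 112.9, 61.6 and 55.7 with irinotecan (log2 fold change -1.06, SE 0.307, limma unadjusted p = 0.00814, adjusted p = 0.743). Cxcr6, a receptor of activated T cells, had a log2 fold change of 0.93 (SE 0.375).

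**Figure D4:**
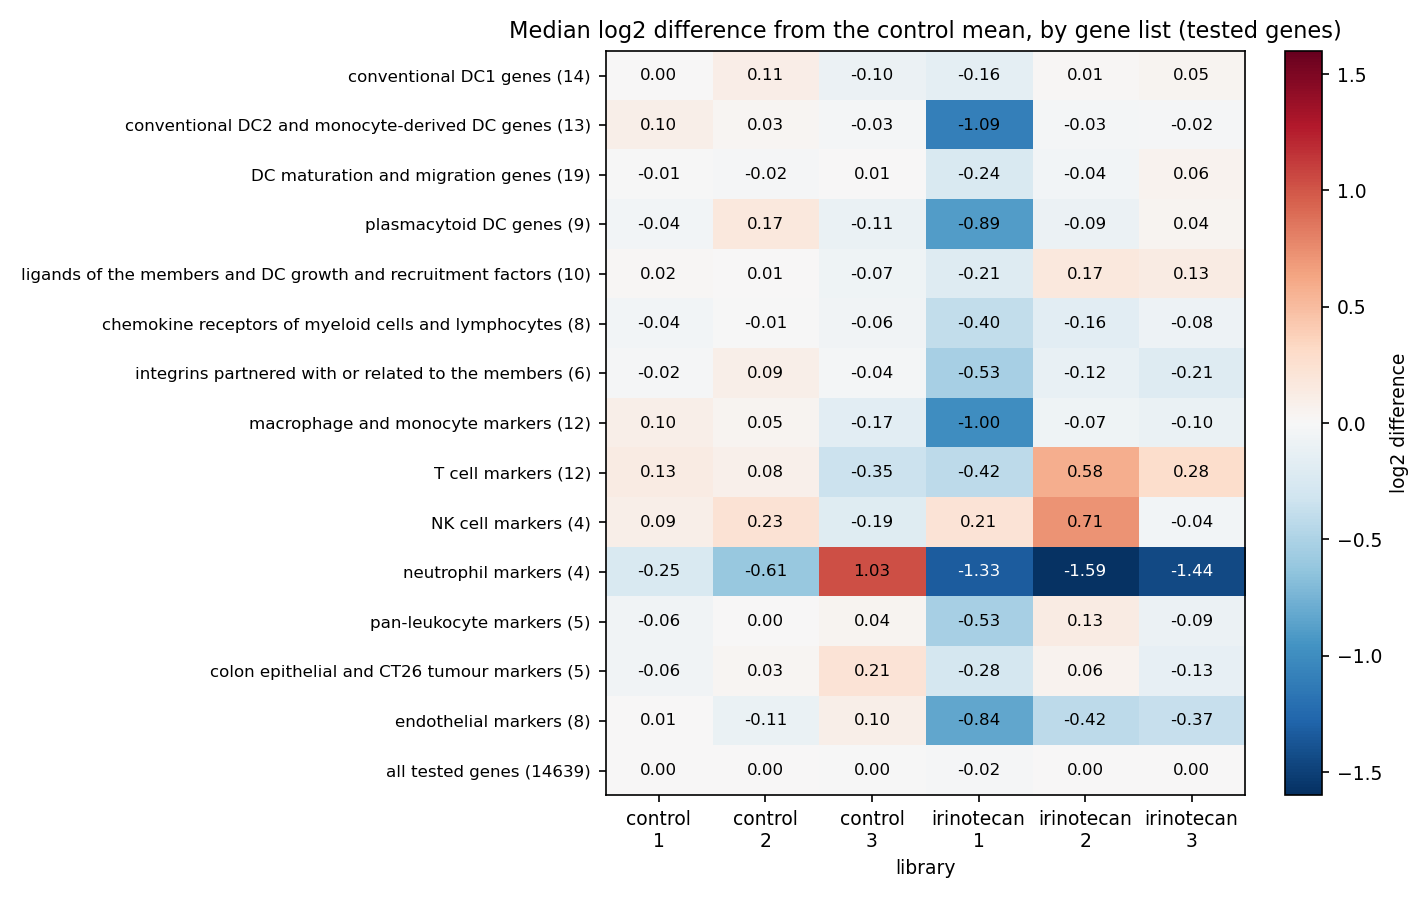
Median log2 difference from the control mean (colour and printed value) over the tested genes of each list (rows, with the number of genes) in each library (columns). Irinotecan replicate 1 is at -1.09 for type 2 and monocyte-derived dendritic cell genes, where irinotecan replicates 2 and 3 are at -0.03 and -0.02.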

How the data were processed

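RNA of 6 CT26 tumours, 3 per group, was sequenced in bulk. The submitters' processing notes name HISAT2 2.0.5, fastp, DESeq2 1.20.0, CASAVA and featureCounts 1.5.0-p3, and the build GRCm38 (mm10), without a role for each. No annotation release or strand setting is given in the sources used here. A normalized signal per library was deposited by the authors, that is, read counts divided by 1 factor per library, with their group means, log2 fold changes and p-values, per the file headers. In every library 100% of values divided by the value of 1 read came out whole (tolerance 1e-06), which gave back the reads.

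The main test was limma 3.58.1 (R 4.3.3) with a trended prior, on log2(normalized count + 1), for 14639 genes with a mean of at least 10, adjusted by Benjamini-Hochberg over all of them at a threshold of 0.05. It was checked on simulated data. On recovered reads, edgeR 4.0.16 and DESeq2 1.42.0 were alternatives. Alternatives also covered scaling, pseudocount, filters, library weights, the replicate block and each library left out. Removal of a trend on GC content and length, and both count tools without irinotecan replicate 1, were added after the data were seen. GC content came from GENCODE M21 transcripts, with a value for 99.9% of tested genes. Same-group libraries differed beyond counting noise (chi-square per degree of freedom at least 10.7).

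The marker genes and lists were chosen with earlier results of these data known. All 10 marker genes are named. From each list the 2 genes with the smallest unadjusted limma p and a fixed set (among them Irf8, Irf4, Sirpa, Siglech, Fscn1, Ccl22, Flt3l, Xcl1, Cdh1, Itgb2, Itgb7, Ptprc, Csf1r, Cd3e, Ncr1 and Cd207) are named. Lamp3, Krt20, Epcam, Clec1b and Gm43914 were added with their values known. Some genes the rule names are not reported here. Reads carried no molecular identifiers and are not independent molecules, so intervals cover counting error only.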

Additional observations from a re-analysis of the deposited data

How the results depend on the processing

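None of the marker genes was called under any alternative run. For Zbtb46, Wdfy4, Flt3 and Clec9a the direction held under every alternative, with log2 fold changes of 0.44 to 0.72, -0.49 to -0.24, -1.81 to -0.51 and -2.23 to -0.16. The unadjusted p of Zbtb46 did not stay under 0.05 throughout. It was 0.0585 without control replicate 1 and 0.0545 without control replicate 2 (limma), and 0.0571 without irinotecan replicate 1 (DESeq2). Over all genes the count called was 52 with DESeq2, 52 with estimated library weights, 162 with DESeq2 without irinotecan replicate 1 and 2 with edgeR without it, against 0 with limma. Leaving out each library in turn gave 0 to 2.

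Leaving out each library in turn, log2 fold changes ranged from -0.0405 to 0.52 for Ccr7, -0.72 to 0.0528 for Xcr1, -1.65 to 0.81 for Cd209a, -0.28 to 0.36 for Itgax, -0.68 to 0.15 for Itgae and -1.06 to 1.06 for Batf3, so their direction turned. Relative to Ptprc the same ranges were -0.63 to 0.0297 for Xcr1, -1.54 to 0.79 for Cd209a, -0.16 to 0.34 for Itgax, -0.56 to 0.13 for Itgae and -0.97 to 1.03 for Batf3. Without irinotecan replicate 1, DESeq2 and edgeR gave 0.000114 and 0.00277 for Xcr1, 0.65 and 0.65 for Cd209a, 0.15 and 0.16 for Itgae, and 0.78 and 0.77 for Batf3. Cd209a also turned with quantile normalization (0.00853), edgeR with TMM (0.0732), edgeR with DESeq2-type size factors (0.0737), DESeq2 (0.0769) and estimated library weights (0.49). Itgae turned with the weights (0.0537). Batf3 turned with a pseudocount of 10 (0.0375), edgeR with TMM (0.19), edgeR with DESeq2-type size factors (0.19), DESeq2 (0.19), the weights (0.72) and the GC and length trend removed (0.13). Relative to a leukocyte gene, Cd209a turned with a pseudocount of 10 (0.0112), and Batf3 with Cd53 (0.0648) or Laptm5 (0.0107) as reference and with a pseudocount of 10 (0.14). Relative to Cd53 or Laptm5, Wdfy4 kept its sign at -0.12 and -0.18 but no longer separated the groups fully. The cause was not tested.

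With the replicate number as a block, 0 genes were called and no call changed. Deviations of same-numbered libraries from their group means correlated at -0.11, -0.01 and -0.21 across genes, so the numbers were not treated as pairs.

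Depth limits Batf3, Flt3, Cd209a and Clec9a most, with 0 to 40 reads per library.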

Other observations

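Markers of other leukocytes that a tumour sample could hold were also read from the table. All 4 tested neutrophil markers had a negative log2 fold change with a median of -1.37 (-1.51 without irinotecan replicate 1). S100a9, a subunit of calprotectin, had 67.3, 45.0 and 173.3 normalized counts in controls and 53.4, 16.4 and 23.3 with irinotecan, and the chemokine receptor gene Cxcr2 had a log2 fold change of -2.13 (SE 0.769). Of 4 tested natural killer cell markers 3 were positive with a median of 0.38, which was 0.19 to 0.51 with each library left out in turn and lowest without irinotecan replicate 2. Ncr1, the activating receptor NKp46, had 24.0 to 38.3 normalized counts in controls and 25.3 to 53.9 with irinotecan, and Prf1, which encodes perforin and is shared with T cells, had 158.8 to 217.5 and 131.8 to 516.3. None of these genes was called by limma. Cd163, the macrophage scavenger receptor, stood at -1.11 (SE 0.204) on the log2 scale, with all irinotecan libraries under the controls. Cd207, the Langerhans cell lectin, had 4, 2 and 4 reads in controls and 0 in each irinotecan library, where the exact Poisson 95% interval runs up to 3.69 reads. In the list of Langerhans cell and keratinocyte markers 2 genes passed the filter, Krt10 and Trp63, at -0.23 (SE 0.437) and 0.23 (SE 0.613). Among B cell markers Cd79a and Ighm passed, at -0.99 (SE 0.619) and -0.32 (SE 0.559). The keratins Krt8 and Krt18 were at 0.52 (SE 0.517) and -0.61 (SE 0.362). The pan-leukocyte genes Cd53 and Laptm5 were at -0.26 (SE 0.204) and -0.21 (SE 0.204). With irinotecan replicate 1 left out, Ighm and Laptm5 turned to 0.03 each, Krt8 was at 1.17, Krt18 at -0.19, Trp63 at 0.56, Krt10 at -0.10, Cd79a at -0.56, Cd53 at -0.13 and Ncr1 at 0.27.

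By Pearson r of log2(normalized count + 1) over the 6 libraries, the tested genes most like Clec9a were Cstb (0.999), March1 (0.998) and 4930466K18Rik (0.998). Those most like Flt3 were Mark4 (0.996), Zc2hc1c (0.995) and Inpp5d (0.994), and those most like Ccr7 were Sirt7 (0.998), AW046200 (0.993) and Gm44075 (0.992). The closest other marker gene was Clec9a at rank 367 (0.938) for Flt3, Itgax at rank 407 (0.883) for Ccr7, and Itgae at rank 1213 (0.942) for Clec9a, for which Zbtb46 was at rank 11866 (-0.78). These correlations share 6 libraries, of which irinotecan replicate 1 is far from the rest, and they are given as a description.

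Within the span of Clec9a lie Clec1b, a lectin of platelets and some myeloid cells, and Gm43914, a sense intronic transcript, both on the same strand. Clec1b had 12.3 normalized counts in irinotecan replicate 1, where Clec9a had 1.03, against 0 to 4.84 in the other libraries. Gm43914 had 0 in irinotecan replicate 1 and 1.94 to 12.5 in the other libraries. These patterns were noticed in the data, and their cause was not tested.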
